A study of Mus musculus with 9 samples.

Results

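The genes described here are the cytokines of the IL-6 and colony-stimulating families and their receptors in BV2 cells, an immortalized mouse microglial line. They were chosen by gene symbol, with earlier results of these data known, and number 10 of the 54532 genes in the expression table. The 6 ligands are Il6, Lif, Osm, Csf1, Csf2 and Csf3, and the 4 receptors are Il6ra, Il6st, Csf1r and Csf2rb. RNA-seq was performed on 3 groups of 3 libraries, and all 9 libraries came from BV2 cells. The control group was kept in complete medium with 10% serum. The OGD group (oxygen glucose deprivation, a cell model of hypoxia and ischemia) was kept in low-glucose medium with 4% serum at 4% oxygen. The OGD + A-485 group received the same deprivation together with A-485, which inhibits the acetyltransferase P300 and had been used to lower histone lactylation. In the study, 50 μM of A-485 and 24 h of OGD are given for the experiments that preceded the sequencing and are not repeated for it. No group received A-485 in normal medium, so its effect there was not measured. Glucose, oxygen and serum changed together in the OGD group and their effects cannot be told apart.

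IL-6, LIF and oncostatin M signal through a shared receptor subunit encoded by Il6st, which is joined by a ligand-specific chain such as the IL-6 receptor (Il6ra), the LIF receptor (Lifr) or the oncostatin M receptor (Osmr). The subunit activates JAK kinases and the transcription factor STAT3. M-CSF (Csf1) acts through the tyrosine kinase receptor Csf1r, on which microglia depend for survival. GM-CSF (Csf2) acts through the alpha chain Csf2ra and the common beta chain Csf2rb, which activate STAT5, and G-CSF (Csf3) acts through Csf3r. The mRNAs of several of these ligands are short-lived, are induced in macrophages by NF-kappaB, AP-1 and C/EBP factors, and are cleared through AU-rich elements in the 3′ untranslated region (3′UTR).

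After OGD, 5 of the 6 ligands rose (Lif, Osm, Csf1, Csf2 and Csf3), and with A-485 present 5 of the 6 were lower than with OGD alone (Il6, Lif, Osm, Csf2 and Csf3). Of the 4 receptors, Csf1r and Csf2rb rose after OGD and were higher again with A-485, and Il6ra rose with A-485. Levels are FPKM, fragments scaled to gene length and to the authors' measure of sequencing depth. Differences are log2 fold changes of FPKM + 0.1, fitted with limma over the 16123 genes whose mean reached 0.2 FPKM. Calls required p under 0.01 before adjustment and a log2 fold change beyond 0.5 in either direction, the thresholds of the study's methods. All 10 genes passed the filter on low values. The adjusted p-values given below are Benjamini-Hochberg values over all genes tested.

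In OGD against control, 7 of the 10 genes were called higher and 0 lower, where 11.2% of all genes tested were called higher and 9.81% lower. In OGD + A-485 against OGD, 3 were called higher, all of them receptors, and 5 were called lower, all of them ligands. The count of 3 fell to 1, Csf1r, once the median shift of the 50 nearest genes was removed from each gene, and Csf2rb lost its call under several other settings. The background there was 12.2% higher and 13.4% lower. In OGD + A-485 against control, 3 genes were higher (Csf3, Csf1r and Csf2rb) and 3 were lower (Il6, Lif and Csf2), with 17.0% of all genes higher and 16.6% lower. With the shift of the 50 nearest genes removed, Csf3 lost this call, and Csf2rb lost its call in OGD against control. The median log2 fold change of the 6 ligands was 0.99 in the first comparison, -1.78 in the second and -0.55 in the third, and that of the 4 receptors was 0.18, 0.56 and 0.70. The median over all genes tested was between 0.01 and 0.02 in each. The first and the second comparison share the OGD libraries, so a value that is high in them by chance raises the one and lowers the other.

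**Figure D1:**
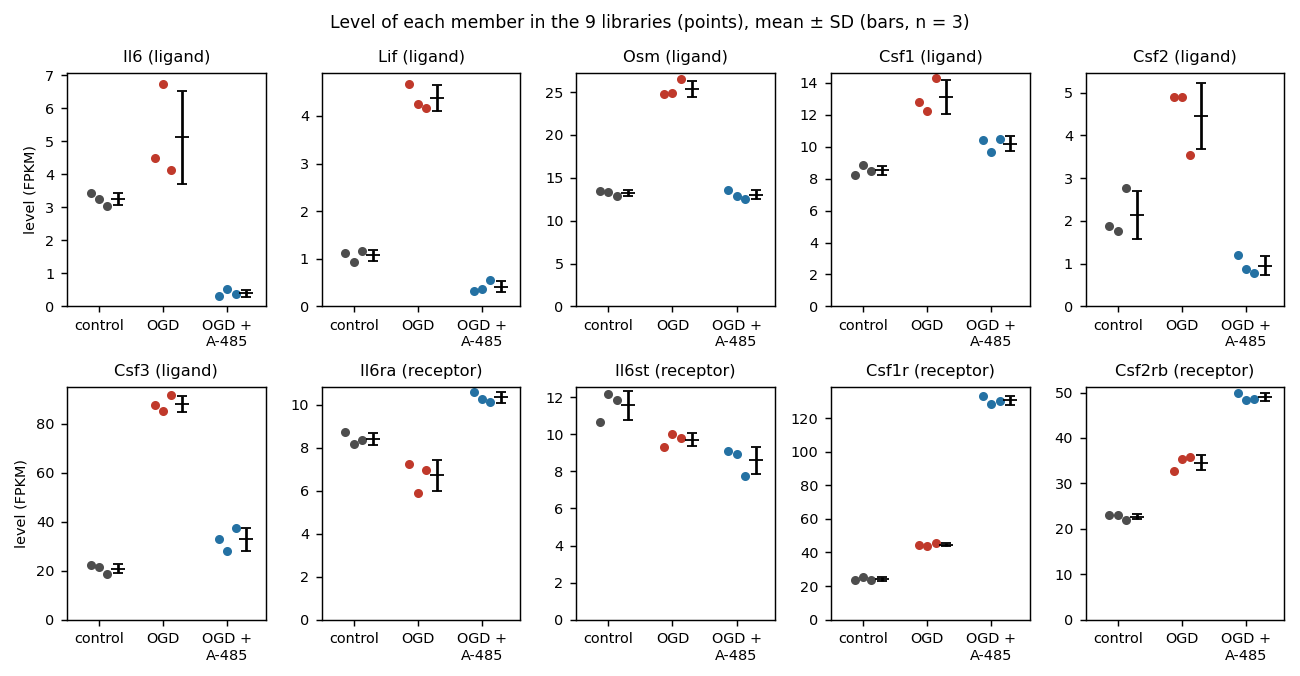
Level of each gene in FPKM (vertical axes, linear from 0) in the 3 libraries of each group (points), with the mean and SD of each group beside them (black bar, n = 3). The ligands Lif, Osm, Csf2 and Csf3 peak in the OGD group, while Csf1r and Csf2rb climb from control to OGD to OGD + A-485, where Csf1r reaches 131 FPKM.

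The libraries held between 12593250 and 16091038 reads on genes, recovered as whole reads from the FPKM values, and 1 read on a gene of 1 kb was worth between 0.0618 and 0.0786 FPKM. Of 15 microglia and macrophage markers, 13 reached a mean of 1 FPKM, while C1qa and P2ry12 were under 0.2 FPKM. Their summed level was 582 to 602 FPKM in the control, 736 to 753 in the OGD and 1277 to 1314 in the OGD + A-485 libraries. The 5 markers each of astrocytes, neurons, fibroblasts and T cells summed to at most 0.155 FPKM in any library, with Gja1, Aqp4, Nefl, Dcn and Trac among those at 0 in all 9. The oligodendrocyte markers summed to between 1.02 and 2.36 FPKM with Mog, Mag and Olig2 at 0, and the endothelial markers to between 0.572 and 1.58 FPKM with Cldn5 at 0. Nothing in the labels says that the libraries of a group came from separate cultures, so the p-values measure the spread between these libraries, which may be technical. In bulk RNA, fewer cells that express a gene and less of its RNA per cell cannot be told apart.

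The promoters of 6 of the 10 genes were found in the RefSeq promoter table (build GRCm38.p6, 250 bases before to 50 after the start of transcription): Il6, Lif, Csf1, Csf2, Il6ra and Il6st. Those of the 4 ligands among them are shown, together with that of Il6ra, the receptor among them that rose with A-485. Capitals mark matches, on either strand, to the motifs of the NF-kappaB (kappaB), AP-1 (TGANTCA) and C/EBP (TTNNGNAA) factors that are known to act on these genes, to the STAT motif (TTCNNNGAA), to the cAMP response element (TGACGTCA) and to the hypoxia response core (ACGTG). They lie at chr5:30012864-30013163 on the forward strand, chr11:4257318-4257617 on the forward strand, chr3:107760420-107760719 on the reverse strand, chr11:54249850-54250149 on the reverse strand and chr3:89913147-89913446 on the reverse strand.
Il6: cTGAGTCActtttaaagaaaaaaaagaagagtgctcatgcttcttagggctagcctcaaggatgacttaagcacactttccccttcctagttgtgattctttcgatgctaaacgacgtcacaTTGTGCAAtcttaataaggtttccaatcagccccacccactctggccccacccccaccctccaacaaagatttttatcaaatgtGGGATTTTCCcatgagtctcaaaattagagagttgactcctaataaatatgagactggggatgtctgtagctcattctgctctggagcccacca
Lif: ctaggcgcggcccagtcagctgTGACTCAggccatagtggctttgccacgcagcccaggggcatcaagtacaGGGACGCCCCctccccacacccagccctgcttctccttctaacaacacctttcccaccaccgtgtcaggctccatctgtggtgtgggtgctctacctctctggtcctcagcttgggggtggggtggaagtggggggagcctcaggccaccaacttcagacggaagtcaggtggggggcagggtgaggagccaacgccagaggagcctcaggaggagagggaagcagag
Csf1: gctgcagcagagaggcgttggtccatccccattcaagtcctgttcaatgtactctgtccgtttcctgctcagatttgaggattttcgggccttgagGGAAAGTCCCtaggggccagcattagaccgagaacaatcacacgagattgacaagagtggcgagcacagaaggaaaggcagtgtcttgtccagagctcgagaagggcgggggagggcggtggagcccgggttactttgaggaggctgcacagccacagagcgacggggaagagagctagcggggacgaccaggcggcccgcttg
Csf2: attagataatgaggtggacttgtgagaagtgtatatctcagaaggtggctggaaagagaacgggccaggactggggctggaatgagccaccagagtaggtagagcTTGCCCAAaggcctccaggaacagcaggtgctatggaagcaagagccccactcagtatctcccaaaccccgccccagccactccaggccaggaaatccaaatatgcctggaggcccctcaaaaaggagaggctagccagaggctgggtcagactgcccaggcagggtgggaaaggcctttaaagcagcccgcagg
Il6ra: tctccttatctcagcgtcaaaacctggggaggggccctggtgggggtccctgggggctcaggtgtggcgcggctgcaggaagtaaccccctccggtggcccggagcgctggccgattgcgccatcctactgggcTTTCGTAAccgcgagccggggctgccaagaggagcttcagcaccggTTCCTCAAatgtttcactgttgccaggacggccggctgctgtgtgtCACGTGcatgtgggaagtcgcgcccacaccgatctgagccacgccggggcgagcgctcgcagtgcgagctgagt

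The kappaB motif stood 44 bases before the start of Il6, 178 before Lif and 154 before Csf1, there on the other strand, and is found in 8.49% of the 32544 promoter windows of this length. The AP-1 motif stood 249 bases before Il6 and 228 before Lif (7.79% of all windows). The C/EBP motif, a loose one that 40.7% of windows hold, was in Il6 (128 bases before the start), Csf2 (145 before) and Il6ra (116 and 70 before). The hypoxia response core was found in Il6ra alone among the 6 windows, at a palindrome that counts on both strands (19.7% of all windows). The cAMP response element (1.80% of windows) and the STAT motif (8.33%) were in none of the 6. The Il6st window held no match to any of the motifs. The RefSeq start of Csf2 lies 232 bases before the start in the deposited table, so its window does not reach the latter. Matches to letters describe these windows and are not evidence of binding, which was not measured.

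A second sequence feature was looked up after the expression values had been seen. Counted in the 3′UTR of the gene models of GENCODE M21 (GRCm38), the AU-rich pentamer ATTTA occurred 9 times in the 317 bases of Csf2, or 28.4 times per kb, a density reached by 0.040% of the 19937 genes with a 3′UTR of at least 100 bases. Csf3 held 8.97 per kb (1.19% of genes are at least as dense), Il6 held 5.995 (4.56%) and Osm held 5.90 (4.78%). Lif held 2.20 per kb (33.7%) and Csf1 1.90 (39.2%), against a median of 1.35 over all genes. The longer nonamer TTATTTATT, which 8.06% of genes hold, occurred 4 times in Csf2 and 2 times in Lif and in none of the other 8 genes. Among the receptors, Csf1r held 1.80 per kb and Il6st 1.60, above that median and close to Csf1, while Il6ra held 0.563 and Csf2rb 0. The stretch of 30 bases with the most pentamers is shown for the 4 ligands above 5 per kb, for Lif, which fell by 3.13 with A-485, and for Il6ra as a receptor that rose. Capitals mark the pentamers, which run into each other in Csf2. The stretches lie at chr11:54247329-54247358, chr11:98702984-98703013, chr5:30019677-30019706, chr11:4240939-4240968, chr11:4272414-4272443 and chr3:89866160-89866189, those of Csf2 and Il6ra on the reverse strand.
Csf2: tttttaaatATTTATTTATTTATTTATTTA
Csf3: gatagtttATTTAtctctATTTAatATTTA
Il6: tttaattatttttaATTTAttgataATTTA
Osm: aatccgttttatATTTAtaaggcctATTTA
Lif: ATTTAttcaatgtcatATTTAaaatATTTA
Il6ra: tttttATTTAcatatcaattcagtcATTTA

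**Figure D2:**
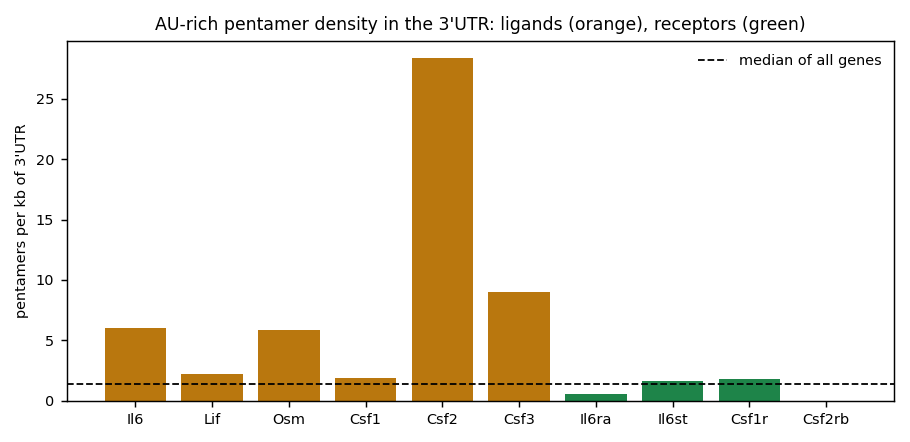
Number of ATTTA pentamers per kb of 3′UTR (vertical axis, from 0) in each of the 10 genes, ligands in orange and receptors in green. The dashed line is the median of all genes, 1.35 per kb. Csf2 stands at 28.4 and Csf3 at 8.97, and no receptor exceeds 1.80.

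Il6 (chr5:30013114-30019981, forward strand) encodes IL-6, an inflammatory cytokine made by activated microglia. Its level was 3.42, 3.27 and 3.05 FPKM in the control libraries, 4.50, 6.74 and 4.13 in the OGD libraries and 0.310, 0.521 and 0.371 in the OGD + A-485 libraries. All OGD libraries lay above all control libraries, but they spread widely, and OGD replicate 2 was well above the others. With OGD the log2 fold change was 0.61 (SE 0.21, limma, adjusted p = 0.0403), but the unadjusted p of 0.0175 missed the threshold and Il6 was not called. Without OGD replicate 2 the log2 fold change was 0.40, while a pseudocount of 1, limma-voom, the replicate block and a threshold on the adjusted p each led to a call. With A-485 all 3 libraries lay below every other library. Il6 fell by 3.37 on the log2 scale from OGD (SE 0.21, adjusted p = 2.66e-06), and A-485 against control gave -2.76 (SE 0.21, adjusted p = 5.07e-06). With a pseudocount of 1 these differences were -2.11 and -1.60. The OGD + A-485 values rest on 11 to 20 reads per library, against 139 to 213 in OGD.

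Lif (chr11:4257557-4272514, forward strand) encodes leukemia inhibitory factor, a sister cytokine of IL-6. Control libraries had 1.12, 0.936 and 1.16 FPKM, OGD libraries 4.68, 4.26 and 4.17, and OGD + A-485 libraries 0.330, 0.364 and 0.558. The groups did not overlap in any of the comparisons, with OGD highest and OGD + A-485 lowest. Lif had a log2 fold change of 1.93 with OGD (SE 0.18, adjusted p = 3.89e-05) and -3.13 with A-485 against OGD (SE 0.18, adjusted p = 1.66e-06). Lif with A-485 was thus also under the control level, by a log2 fold change of -1.20 (adjusted p = 0.000387, limma), on 21 to 35 reads per library. With a pseudocount of 1 it was -1.92 against OGD and -0.55 against control.

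Osm lies near Lif on the same chromosome (chr11:4236420-4241026, forward strand) and encodes oncostatin M, made by myeloid cells. Control libraries had 13.4, 13.4 and 12.9 FPKM, OGD libraries 24.8, 24.9 and 26.5, and OGD + A-485 libraries 13.6, 12.9 and 12.6. The OGD libraries stood apart from the other 6, which overlapped. Osm rose by 0.93 on the log2 scale with OGD (SE 0.05, adjusted p = 1.59e-06), and A-485 against OGD gave -0.96 (SE 0.05, adjusted p = 6.83e-07). The difference between OGD + A-485 and control was -0.02 (SE 0.05, adjusted p = 0.691, limma). It depended on the scaling and reached -0.14 under other settings, without a call.

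Csf1 (chr3:107741048-107760469, reverse strand), the gene of M-CSF, differed least among the ligands between OGD + A-485 and OGD. Control libraries had 8.24, 8.84 and 8.47 FPKM, OGD libraries 12.8, 12.3 and 14.3, and OGD + A-485 libraries 10.4, 9.69 and 10.5. The 3 groups did not overlap, and OGD + A-485 lay between the others. Csf1 rose by 0.62 on the log2 scale with OGD (SE 0.07, adjusted p = 8.17e-05). With A-485 the log2 fold change was -0.36 against OGD (SE 0.07, adjusted p = 0.00164) and 0.26 against control (SE 0.07, adjusted p = 0.00821), neither of which reached the limit on the fold change.

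Csf2 (chr11:54247271-54249667, reverse strand), the gene of GM-CSF, was low throughout. Control libraries had 1.87, 1.75 and 2.78 FPKM, OGD libraries 4.91, 4.90 and 3.55, and OGD + A-485 libraries 1.20, 0.870 and 0.780. No groups overlapped, although control replicate 3 and OGD replicate 3 leaned towards each other. Csf2 rose by 1.04 with OGD (SE 0.22, adjusted p = 0.00428) and A-485 against OGD gave -2.12 (SE 0.22, adjusted p = 5.56e-05). Against control, A-485 gave a log2 fold change of -1.08 (SE 0.22, adjusted p = 0.00247), or -0.68 with a pseudocount of 1. These values rest on 9 to 51 reads per library, and the predicted gene Gm12223, which overlaps Csf2 on the other strand, had a mean of 0.104 FPKM.

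Csf3 (chr11:98701263-98703629, forward strand), the gene of G-CSF, was the most abundant ligand in each group. Its level was 22.3, 21.4 and 18.8 FPKM in the control libraries, 87.6, 85.2 and 91.6 with OGD and 33.1, 28.1 and 37.6 with OGD + A-485. The groups did not overlap, and OGD + A-485 stayed above control. Csf3 rose by 2.08 on the log2 scale with OGD (SE 0.10, adjusted p = 1.59e-06), the largest rise among the 10 genes and close to that of Lif. With A-485 its log2 fold change was -1.43 against OGD (SE 0.10, adjusted p = 6.32e-06) and 0.65 against control (SE 0.10, adjusted p = 0.000537). The summed level of the 6 ligands was 49.0 ± 1.69 FPKM (SD, n = 3) in control, 141 ± 3.25 with OGD and 57.9 ± 5.04 with OGD + A-485, most of it Csf3 and Osm.

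Among the receptors, Il6ra (chr3:89864059-89913196, reverse strand), the IL-6 binding chain, had 8.71, 8.15 and 8.34 FPKM in the control libraries, 7.25, 5.91 and 6.96 with OGD and 10.6, 10.3 and 10.1 with OGD + A-485. OGD libraries were lowest and OGD + A-485 libraries highest, without overlap. With OGD its log2 fold change was -0.33 (SE 0.08, adjusted p = 0.00697), under the limit on the fold change, so Il6ra was not called. With A-485 against OGD it rose by 0.62 (SE 0.08, adjusted p = 0.000143), and the log2 fold change against control was 0.30 (SE 0.08, adjusted p = 0.00843), again not called. The rise with A-485 was 0.48, under the limit, once the median shift of the 50 nearest genes was removed. The predicted gene Gm42809, on the other strand of Il6ra, had a mean of 0.267 FPKM. Il6ra and Il6 thus moved in opposite directions with A-485.

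Il6st (chr13:112464070-112510086, forward strand), the shared signalling subunit, was called in none of the comparisons of the main fit. Its level was 10.7, 12.2 and 11.9 FPKM in the control libraries, 9.34, 10.02 and 9.78 with OGD and 9.11, 8.94 and 7.77 with OGD + A-485. Each group lay below the one before it, with narrow gaps. Its log2 fold change was -0.25 with OGD (SE 0.08, adjusted p = 0.0253), -0.18 with A-485 against OGD (SE 0.08, adjusted p = 0.0838) and -0.42 with A-485 against control (SE 0.08, adjusted p = 0.00115). Under limma-voom and under library totals the last value was -0.54 and was called. The 50 nearest genes around Il6st whose mean reached 1 FPKM shifted by a median of -0.50 on the log2 scale with A-485 against OGD, and with that shift removed Il6st was 0.32 higher instead. The part of this regional shift in the result was not tested further.

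Csf1r, the M-CSF receptor, showed the largest rise with A-485 among the 10 genes. Control libraries had 23.9, 25.4 and 23.4 FPKM, OGD libraries 44.2, 43.9 and 45.7, and OGD + A-485 libraries 133, 128 and 130, on 9180 to 9888 reads per library in the last group. The groups were far apart compared with the spread within them. Its log2 fold change was 0.88 with OGD (SE 0.04, adjusted p = 1.06e-06), 1.55 with A-485 against OGD (SE 0.04, adjusted p = 2.96e-08) and 2.43 against control (SE 0.04, adjusted p = 2.29e-09). The sources used here do not say whether reads were counted by strand, and Hmgxb3 overlaps Csf1r on the other strand, so the levels of both are uncertain. Hmgxb3 had means of 16.5, 16.9 and 15.0 FPKM in control, OGD and OGD + A-485, and the part of shared reads in the result was not tested. The summed microglia and macrophage markers given above, a list that does not hold Csf1r, rose in the same order of groups. Their part in the result was not tested.

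Csf2rb (chr15:78325752-78353847, forward strand), the common beta chain, had 23.0, 23.1 and 22.0 FPKM in the control libraries, 32.6, 35.3 and 35.8 with OGD and 49.9, 48.3 and 48.6 with OGD + A-485. The groups did not overlap and climbed in that order. Its log2 fold change was 0.60 with OGD (SE 0.04, adjusted p = 9.33e-06), 0.50 with A-485 against OGD (SE 0.04, adjusted p = 1.87e-05) and 1.11 against control (SE 0.04, adjusted p = 1.21e-07). The value of 0.50 passed the limit narrowly, and without OGD replicate 1 it was 0.46 and without OGD + A-485 replicate 1 it was 0.49, both under the limit. With quantile normalization it was 0.37, also under the limit. With the median shift of the 50 nearest genes removed, Csf2rb had 0.47 with OGD and 0.45 with A-485 against OGD, both under the limit. Csf2rb has a near copy, Csf2rb2, in which 18.4% of the 50-base windows of its longest transcript are found unchanged. For windows of 100 and 150 bases the shares were 6.96% and 3.47%, so the share depends on the length of the reads. Reads may have been split or lost between the pair, and both levels are uncertain.

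**Figure D3:**
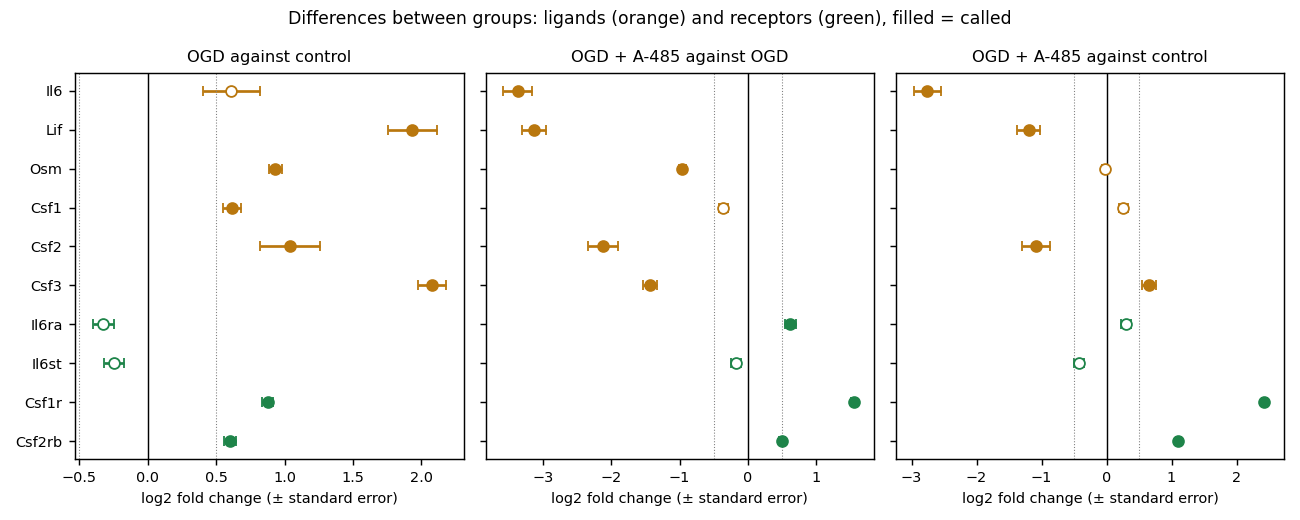
Log2 fold change of each gene (horizontal axis, points, with the standard error of the limma fit as bars) in the 3 comparisons, ligands in orange and receptors in green. Filled points were called and dotted lines mark 0.5 in either direction. With A-485 against OGD the ligands reach from -3.37 (Il6) to -0.36 (Csf1) and the receptors from -0.18 (Il6st) to 1.55 (Csf1r).

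The order of the 10 genes by level per length changed between the groups. In control it was Csf1r, Csf2rb, Csf3, Osm, Il6st, Csf1, Il6ra, Il6, Csf2 and Lif, in which Csf2rb and Csf3 overlapped over their libraries, as did Csf1 and Il6ra. In OGD, Csf3 came first at 88.1 ± 3.25 FPKM (SD, n = 3), above 97.1% of all genes tested, and Il6ra, Il6, Csf2 and Lif at the bottom each overlapped the next. In OGD + A-485, Csf1r came first at 131 ± 2.58 FPKM, above 98.0% of genes tested. Lif (0.417 ± 0.123) and Il6 (0.401 ± 0.109) came last and overlapped, above 13.3% and 12.7% of genes. The summed level of the 4 receptors was 66.9 ± 1.73 FPKM in control, 95.6 ± 2.47 with OGD and 198 ± 3.89 with OGD + A-485, above that of the ligands in control and in OGD + A-485 and below it in OGD.

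Receptor over ligand within a library gave ratios of FPKM that do not depend on the scaling between libraries. The ratio of Csf1r to Csf1 was 2.85 ± 0.0702 (SD, n = 3) in control, 3.41 ± 0.194 with OGD and 12.8 ± 0.392 with OGD + A-485. The ratio of Csf2rb to Csf2 was 11.1 ± 2.82, 7.97 ± 1.84 and 53.2 ± 10.5, where control and OGD overlapped. The ratio of Il6ra to Il6 was 2.59 ± 0.124, 1.39 ± 0.447 and 27.1 ± 7.25. In all 3 pairs the OGD + A-485 libraries lay above the other 6. The shared subunit Il6st over Il6 was likewise highest in OGD + A-485, with 3.57 ± 0.405, 1.98 ± 0.449 and 22.5 ± 6.27, as was Il6st over Lif, with 10.9 ± 1.84, 2.23 ± 0.205 and 22.0 ± 7.18. Il6st over Osm behaved otherwise, with 0.874 ± 0.0702 in control, 0.383 ± 0.0176 with OGD and 0.661 ± 0.0393 with OGD + A-485, so that control stayed highest.

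**Figure D4:**
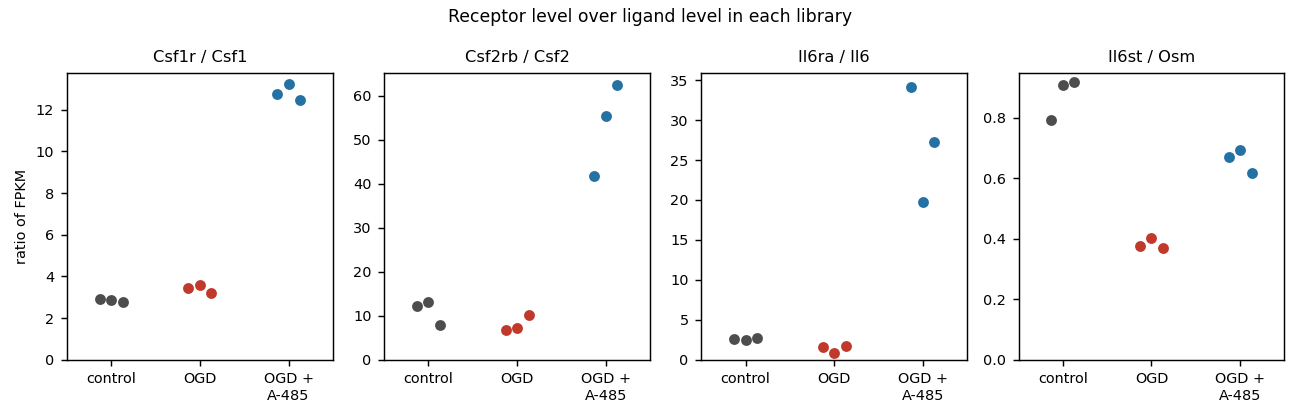
Ratio of the FPKM of a receptor to that of a ligand in each library (vertical axes, linear from 0, 1 panel per pair), by group. The ratios of Csf1r to Csf1, Csf2rb to Csf2 and Il6ra to Il6 are highest in OGD + A-485, with means of 12.8, 53.2 and 27.1, and that of Il6st to Osm is highest in control.

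The other ligands and receptors of the families were mostly at or near 0. Of the ligand-specific chains for the members, Lifr had 2 reads and Osmr 2 reads over all 9 libraries, so that the receptor complexes for LIF and oncostatin M were covered here only by Il6st. Cntfr (2 reads), Ctf1 (1), Il11 (12) and Il5 (2) were equally sparse, Cntf (27), Clcf1 (37), Il27ra (50) and Il11ra1 (55) had few reads, and Il12a, Il3 and Il5ra had 0. None of these passed the filter of 0.2 FPKM.

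Ebi3, a subunit shared by IL-27 and IL-35, was high and rose from 28.5 ± 1.12 FPKM (SD, n = 3) in control to 57.8 ± 2.55 in OGD (log2 fold change 1.02, adjusted p = 9.40e-07, limma). With A-485 it was 73.5 ± 1.86, a log2 fold change of 0.35 against OGD that was not called. Its partner Il27 had 0.907 ± 0.268, 0.949 ± 0.320 and 0.174 ± 0.101 FPKM, a log2 fold change of -1.96 with A-485 against OGD (adjusted p = 0.00221) on 1 to 4 reads per OGD + A-485 library. That value ranged from -2.51 with a pseudocount of 0.01 to -0.72 with a pseudocount of 1. Il34, the other ligand of Csf1r, rose with OGD and fell with A-485, as Lif did. Its level was 1.51 ± 0.187 FPKM in control, 3.17 ± 0.115 with OGD and 0.970 ± 0.150 with OGD + A-485, with log2 fold changes of 1.03 (adjusted p = 0.000302) and -1.62 (adjusted p = 1.58e-05).

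Among the other receptors of the colony-stimulating factors, Csf2ra and Csf2rb2 rose with OGD, and Csf2rb2 and Csf3r rose with A-485. Csf2ra, the partner of Csf2rb, had 29.5 ± 2.19 FPKM in control, 44.8 ± 2.99 with OGD and 61.0 ± 4.39 with OGD + A-485. Its log2 fold change was 0.60 with OGD (adjusted p = 0.000218, limma) and 0.45 with A-485 against OGD (adjusted p = 0.00107), the latter not called. Csf2rb2 rose in both comparisons, by 0.77 (adjusted p = 1.15e-05) and 0.64 (adjusted p = 2.40e-05), with the limit that reads may be shared with Csf2rb. Csf3r had 4.24 ± 0.665, 4.22 ± 0.473 and 13.3 ± 1.34 FPKM, a log2 fold change of 1.64 with A-485 against OGD (adjusted p = 1.06e-05). The ratio of Csf3r to Csf3 was 0.204 ± 0.0250 in control, 0.0480 ± 0.00670 with OGD and 0.412 ± 0.0865 with OGD + A-485. Il3ra had 0.135, 0.144 and 0.433 FPKM on average and was not called.

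A list of 75 other genes of these pathways, of which 60 passed the filter, was examined in the same fit. This list was also chosen with earlier results of these data known, which limits the comparison of its shares with the background. With OGD, 16 were called higher (26.7%) and 4 lower (6.67%), and with A-485 against OGD 15 were higher (25%) and 7 lower (11.7%). Over all genes tested the shares were 11.2% higher and 9.81% lower with OGD, and 12.2% higher and 13.4% lower with A-485. Of the 14 signal transducers, 2 rose with OGD (Tyk2 and Gab2) and 6 rose with A-485, among them Shc1, Grb2, Stat5a and Lyn, with none lower in either. Of the 2 proteases that shed cytokine receptors, Adam17 rose with A-485 by 0.62 (adjusted p = 1.06e-06) and Adam10 was not called in either.

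Of the 9 feedback inhibitors, Cish was called in both comparisons. Cish, a STAT5-induced inhibitor of cytokine receptors, had 1.96 ± 0.126 FPKM (SD, n = 3) in control, 5.82 ± 0.617 with OGD and 1.21 ± 0.0505 with OGD + A-485, log2 fold changes of 1.52 (SE 0.10, adjusted p = 6.86e-06) and -2.17 (SE 0.10, adjusted p = 6.04e-07). It was thus lowest, like Lif, Il6 and Csf2, in OGD + A-485. Socs3, the inhibitor that STAT3 induces, was not called with OGD and rose with A-485 by 0.58 (adjusted p = 0.000167), and Cbl rose by 0.59 (adjusted p = 1.54e-05).

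Of the 18 transcription factors and mRNA regulators that act on these cytokine genes, 4 rose and 4 fell with OGD (22.2% each, where 11.2% of all genes rose and 9.81% fell). Atf3 rose by 1.42 on the log2 scale (SE 0.05, adjusted p = 3.43e-07), while the AP-1 subunit Fos had -0.96 (SE 0.18, adjusted p = 0.00218), the NF-kappaB cofactor Bcl3 had -0.94 (SE 0.08, adjusted p = 2.40e-05) and the C/EBP factor Cebpd had -0.67 (SE 0.11, adjusted p = 0.00111). Other members of the same groups rose with OGD, the AP-1 subunit Junb by 1.15 (adjusted p = 1.51e-06) and the NF-kappaB cofactor Nfkbiz by 0.57 (adjusted p = 6.33e-06). With A-485 against OGD, Junb had -0.60 (adjusted p = 2.94e-05), at 44.9, 99.7 and 65.7 FPKM in the 3 groups. With A-485 against OGD 4 rose (22.2%, background 12.2%) and 3 fell (16.7%, background 13.4%). Fos rose by 1.40 (SE 0.18, adjusted p = 0.000205). Zfp36, which encodes tristetraprolin, a protein that binds AU-rich elements and promotes mRNA decay, had -1.07 (SE 0.04, adjusted p = 3.10e-07), and Khsrp, a decay factor of the same elements, had -0.78 (SE 0.06, adjusted p = 1.34e-05). With the median shift of its 50 nearest genes removed, Khsrp had -0.37 and was not called. Among the other mRNA regulators of the list, Zc3h12a rose with A-485 against OGD by 0.72 (adjusted p = 4.91e-05, limma). Zfp36l1 (0.41), Elavl1 (0.22) and Arid5a (-0.41) were not called in that comparison. Elavl1 was the remaining gene called lower with OGD, at -0.61 (adjusted p = 9.08e-05, limma). The remaining called rises with A-485 against OGD were Irf1 (0.84, adjusted p = 0.000931, limma) and Cebpd (0.78, adjusted p = 0.000392, limma). Zfp36 had 14.7 ± 0.300 FPKM in control, 23.8 ± 0.255 with OGD and 11.2 ± 0.582 with OGD + A-485. Its level was thus highest in OGD, as were those of all 6 ligands, whatever the density of pentamers in their 3′UTR.

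Of 10 tested target genes of STAT3 and STAT5, 5 rose with OGD (Myc, Vegfa, Lcn2, Mcl1 and Pim1, 50%, background 11.2%) and 0 fell (background 9.81%). The other 5 were not called, and the part of STAT3 or STAT5 in these rises was not tested. Myc, a growth regulator, rose by 1.61 (SE 0.15, adjusted p = 4.06e-05, limma). With A-485 against OGD 0 were called higher and 1, the survival gene Bcl2l1, was lower, a share of 10% near the background of 13.4%.

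**Figure D5:**
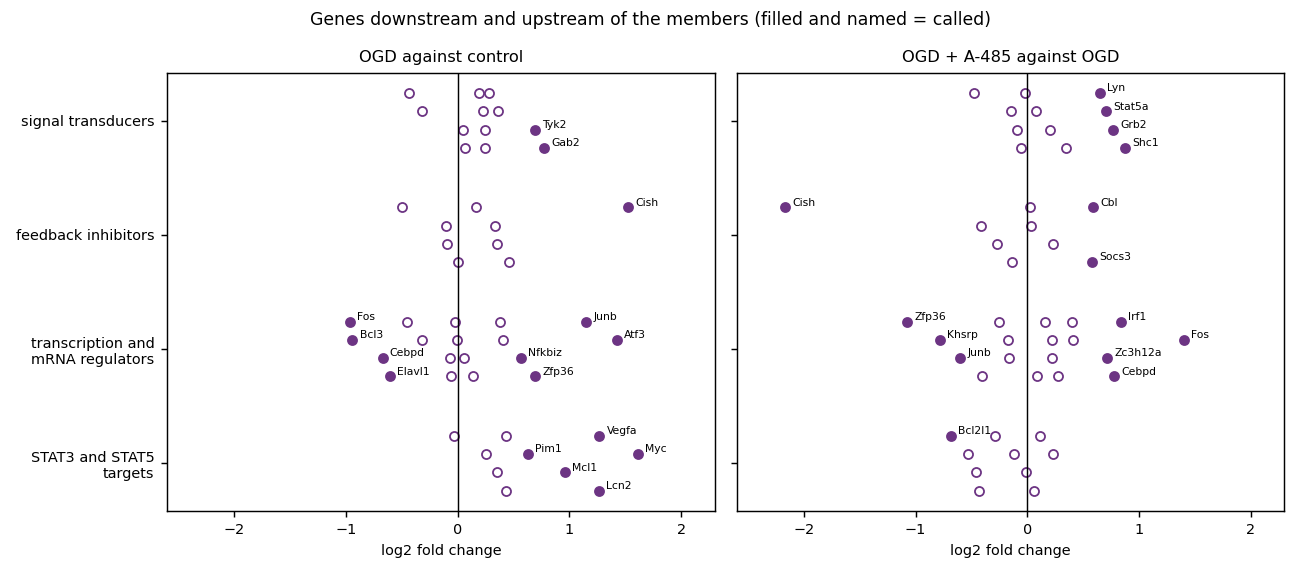
Log2 fold change (horizontal axis) of signal transducers, feedback inhibitors, transcription and mRNA regulators, and STAT3 and STAT5 target genes in OGD against control and in OGD + A-485 against OGD. Each point is a tested gene, filled and named where called, and some genes of the lists are not shown. Cish is the lowest point with A-485, at -2.17, and Fos the highest of those shown, at 1.40.

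For each ligand, the genes whose log2 level was most like it over the 9 libraries were found by Pearson's r, searching the 11898 genes whose mean reached 1 FPKM. The 9 libraries form 3 groups, so a high r says mainly that the group means follow the same order and spacing. Il6 was nearest to Jmy (r = 0.998) and 4930503L19Rik (0.997), whose means fell with A-485 far less, for Jmy from 13.9 to 8.20 FPKM. Lif was nearest to the chemokine gene Ccl4 (0.995), with means of 599.6, 1234 and 394 FPKM in the 3 groups, and to Il34 (0.995). Osm was nearest to the glycolytic gene Pfkp (0.997) and to Pkd1l2 (0.995). Csf1 was nearest to Slc39a4 (0.992) and Ppme1 (0.987), Csf2 to Serpinb1b (0.990) and Mir155hg (0.984), the host transcript of miR-155, and Csf3 to Cap1 and Arhgef7 (0.996 each).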

How the data were processed

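RNA from 9 BV2 libraries was sequenced, and each library was assigned to its group by its label. According to the methods, the authors removed low-quality reads, counted reads on genes with featureCounts and computed FPKM from gene length and read count. The deposited table holds FPKM for 54532 genes on GRCm38. The aligner and strand setting are not given in the sources used here. FPKM times gene length and a library divisor gave whole reads (within 0.05) for 100% of values. Group means of log2(FPKM + 0.1) were estimated with limma 3.58.1 (R 4.3.3), using a prior variance with a trend. The study's count test was replaced because the unit is FPKM, and limma-voom on recovered reads is an alternative. The fit was tested on simulated data. The genes and lists were chosen with earlier results of these data known. All 10 genes were named. Of the signalling, regulator and target lists, the 3 largest called rises and falls per comparison (mean of at least 1 FPKM) are described with their statistics, and other genes of the lists named, such as Adam17, Socs3, Cbl, Junb and Nfkbiz, were chosen after their values were seen. Some genes of the lists enter the counts and are not reported here by name. Tables were made with Python 3.11.15 and pandas 2.3.3. Alternatives were pseudocounts of 1 and 0.01, a minimum of 1 FPKM or none, quantile and library-total scaling, only the groups compared, a replicate block, no prior trend, limma-voom, an adjusted p under 0.05, each library left out, and, added after the data were seen, removal of the median shift of 50 neighbouring genes.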

Additional observations from a re-analysis of the deposited data

How the results depend on the processing

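Over the 30 log2 fold changes of the 10 genes, 610 of 630 alternative values kept direction and side of the thresholds, 10 lost the call, 6 gained it and 4 changed sign. Some alternatives leave the log2 fold change as it is and can change only the call. They are the adjusted p, the minimum of 1 FPKM or none, only the groups compared, the replicate block and no prior trend. Leaving out a library of the group that is not compared is another. The calls of Lif, Osm, Csf1, Csf2, Csf3 and Csf1r in OGD against control, and of Il6, Lif, Osm, Csf2, Csf3 and Csf1r in OGD + A-485 against OGD, were kept under every alternative run. The rise of Il6 with OGD was called with a pseudocount of 1 (0.50), with limma-voom (0.57), with an adjusted p under 0.05 and with the replicate block (0.61, adjusted p = 0.0228, range over the alternatives 0.00674 to 0.122), and was 0.40 without OGD replicate 2. The block was not supported as a pairing: libraries with the same replicate number correlated by -0.0023 on average in their deviations (-0.0463 to 0.0386), and it changed no other call of the 10 genes. The rise of Csf2rb with A-485 lost its call with a pseudocount of 1 (0.49), quantile normalization (0.37), library totals (0.44), limma-voom (0.44) and without a library (lowest 0.46, highest 0.53 over the libraries left out). Il6st in OGD + A-485 against control was called under limma-voom and library totals (-0.54 in both). With the shift of neighbouring genes removed, 1 receptor instead of 3 was called higher with A-485, since Il6ra (0.48) and Csf2rb (0.45) fell below the limit of 0.5, as did Csf2rb with OGD (0.47) and Csf3 against control (0.50, just under it). The same removal changed the sign of Il6st with A-485 against OGD (0.32) and against control (0.046), and of Osm against control (0.13). Osm against control was -0.14 with library totals and with limma-voom, not called in either, and lay between -0.056 and 0.0008 when libraries were left out, the latter without OGD + A-485 replicate 3. Its adjusted p in limma ranged from 0.0128 to 0.991 over the alternatives. The cause of these changes was not tested. Of 566 alternative values of 27 differences printed for other pathway genes, 559 kept direction and call and none changed sign. Those of Zc3h12a, Zfp36l1, Elavl1, Arid5a and Irf1, and that of Cebpd with A-485 against OGD, are not among the 27. Quantile normalization took Adam17 (0.48) and Cbl (0.50) below the limit with A-485 against OGD, removal of the neighbouring shift took Socs3 (0.41) and Khsrp (-0.37) below it and Ebi3 (0.74) and Csf2ra (0.80) above it, and Csf2ra was 0.51 without OGD + A-485 replicate 2. The low counts of Il6, Lif and Csf2 with A-485 limit their fold changes, as they do that of Il27 (-2.51 to -0.72), and those of the 3 ligands ranged from -3.68 to -2.11, from -3.46 to -1.92 and from -2.29 to -1.48 against OGD.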
